A study of Mus musculus with 4 samples.

Results

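The 10 genes described here encode hypoxia-inducible factor (HIF) subunits (*Hif1a*, *Epas1* and *Arnt*), the machinery that senses oxygen and marks HIF for destruction (*Vhl*, *Egln1* and *Egln3*), and non-glycolytic targets of HIF (*Vegfa*, *Bnip3*, *Ankrd37* and *Ndrg1*). They were picked by symbol, and all 10 were found among the 23420 gene symbols of the counts. The choice was made after genes of hypoxia and glycolysis had been seen to be higher in *Patz1* KO cells of the same libraries, so their levels and fold changes are given as a description. How many of them passed the test over all genes is printed beside the share of all genes that did, and nothing rests on it. RNA-seq was performed on cervical motor neurons (MNs) of genotype wild type (WT), made from the mouse embryonic stem cell (mESC) line E14, and on cervical MNs of genotype *Patz1* -/- (*Patz1* KO) made from E14 cells in which the gene had been disrupted with CRISPR/Cas9. In both groups the mESCs were grown into embryoid bodies and patterned with retinoic acid and the Hedgehog pathway agonist SAG, and each group had 2 libraries of ribosome-depleted total RNA. Several *Patz1* KO lines were made for the study, the labels do not say which line gave which library, and each line stems from edited cells, so a difference between the genotypes cannot be told apart from a difference between lines. The sample titles speak of ESCs while the source and cell type fields name MNs, and the libraries were taken as MNs.

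HIF is a pair of proteins, an alpha subunit that oxygen makes unstable and a beta subunit that is always present. While oxygen is plentiful, prolyl hydroxylases of the EGLN family modify the alpha subunit, and the ubiquitin ligase of the VHL protein then binds the modified subunit and sends it to the proteasome. When oxygen falls, the alpha subunit lasts, joins ARNT and binds a short core motif near its target genes, among them genes of angiogenesis, glycolysis and mitochondrial turnover, and also *Egln3* and *Egln1*, which feed back on the pathway. Control of HIF alpha is thus largely at the level of protein, which RNA counts do not measure.

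The total count was between 14769104 and 23881522 per library, and 3 abundant non-coding RNAs (*Rpph1*, *Rmrp* and *Rn45s*) took 6.33% to 6.81% of it in 3 libraries and 9.65% in *Patz1* KO replicate 2. *Patz1* counted 1363 and 1499 reads in WT against 1154 and 714 in *Patz1* KO MNs, a log2 fold change (*Patz1* KO over WT throughout) of -1.04 with a standard error (SE) of 0.095, so transcripts of the edited gene were still counted. Of the 14269 genes with enough counts to be tested, 6836 (47.9%) passed an adjusted p of 0.05 in the quasi-likelihood test of edgeR after Benjamini-Hochberg adjustment, 24.1% higher and 23.8% lower in *Patz1* KO; without WT replicate 2 it was 4521 genes. In 74.2% of the genes tested the libraries of WT and *Patz1* KO did not overlap. The median log2 fold change over all genes tested was -0.0014.

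The promoters of these genes were searched for the core of the HIF binding motif, written ACGTG or GCGTG. The windows were 300 bases long and lay mostly before the annotated start (RefSeq, GRCm38.p6, the assembly of mm10). Sites outside the windows were not looked for. Windows were at hand for 8 of the 10 genes, all but *Epas1* and *Ndrg1*. Both strands were searched, so CACGT and CACGC mark the motif on the other strand; CACGTG, which reads the same on both strands, was counted once. The stretches below are shown because they hold the ACGTG form in the promoters of a HIF subunit, of both prolyl hydroxylases and of the targets with the most sites. Each is written 5′ to 3′ on the strand of its gene, with the motif in capitals.
Hif1a, chr12:73907720-73907748, plus strand: cacacagacaagCACGTgagcggggcagc
Hif1a, chr12:73907785-73907813, plus strand: tggctgagagcaACGTGggctggggtggg
Egln1, chr8:124949306-124949334, minus strand: gggccgtggtgtACGTGcagcgcgcgcgg
Egln3, chr12:54204087-54204115, minus strand: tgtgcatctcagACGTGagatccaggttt
Bnip3, chr7:138909598-138909626, minus strand: gcgcacgcgccgCACGTgccacacgctcc
Ankrd37, chr8:46000075-46000100, minus strand: cccagcagtACGTGcctagctcggct
Ankrd37, chr8:45999840-45999868, minus strand: cagtgtttgggtACGTGaggccgcagcgg

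*Bnip3* and *Ankrd37* each held 4 sites, a number reached by 2.6% of all promoters, and 2 of the 4 in *Ankrd37* overlap each other. *Hif1a* and *Egln1* held 2 sites each, *Arnt* and *Egln3* held 1, and the *Vhl* window held none. The *Hif1a* window lies inside the gene span given below, because at least 1 annotated transcript begins further upstream. The last bases of this window were found in no annotated transcript of the gene, so its start is uncertain. For *Vegfa* the window at the upstream start held none, and 2 sites stood in the window of a start inside the gene, where they lie in a coding exon. The last bases of that inner window were found in no annotated transcript of *Vegfa* either. With the *Hif1a* window and the inner *Vegfa* start counted, 7 of the 8 genes held the motif in either form and 6 held ACGTG. This compares with 67.3% and 28.9% of the 10401 genes tested that had a window. Among all 32851 windows, tested or not, 43.8% held the motif. Of other oxygen-response targets, a list described further on, 24 of 27 genes held the motif (88.9%) and 17 held ACGTG (63.0%). Of the genes that regulate HIF, 9 of 14 held the motif (64.3%) and 3 held ACGTG (21.4%). A match of 5 letters is a description of the window and says nothing of binding there.

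**Figure D1:**
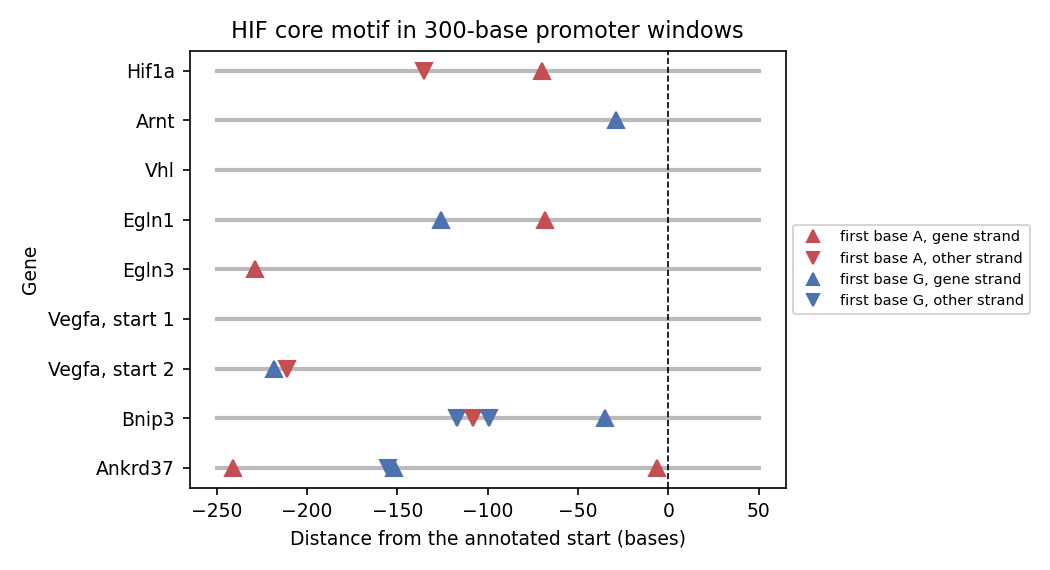
Position of each HIF core motif in the 300-base promoter windows of 8 genes, as distance in bases from the annotated start (dashed line). Red triangles are the form that begins with A and blue triangles the form that begins with G, pointing up on the strand of the gene and down on the other; *Bnip3* and *Ankrd37* have 4 sites each, and *Vhl* and the upstream start of *Vegfa* have none.

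The HIF subunits had lower RNA levels in *Patz1* KO MNs, *Epas1* by far the most. *Hif1a*, the alpha subunit found in nearly all cells (chromosome 12, 73901375 to 73947530 on GRCm38), had 221 and 239 CPM (counts scaled to a common library size) in WT MNs against 191 and 172 CPM in *Patz1* KO MNs. Both *Patz1* KO libraries lay below both WT libraries, with means of 230.0 ± 12.3 and 181 ± 13.3 CPM (SD, n = 2 per group) and a log2 fold change of -0.34 (SE 0.090, 95% interval -0.53 to -0.15). *Arnt*, the beta subunit (chromosome 3, 95434388 to 95497240), had 37.1 and 33.3 CPM in WT and 28.1 and 25.3 CPM in *Patz1* KO, which again did not overlap. Its means were 35.2 ± 2.73 and 26.7 ± 1.92 CPM (SD, n = 2 per group), a log2 fold change of -0.39 (SE 0.11, 95% interval -0.63 to -0.16). These were the smallest differences of the 10 genes, and 49.6% of the genes tested had a larger absolute log2 fold change than *Hif1a* and 44.5% a larger one than *Arnt*. Leaving out each library in turn gave -0.42 to -0.26 for *Hif1a* and -0.47 to -0.31 for *Arnt*. *Arnt* no longer passed the threshold over all genes without WT replicate 1 (log2 fold change -0.31), and *Hif1a* no longer did without WT replicate 2 (-0.28). The exons of *Hif1a* overlap those of the antisense gene *Gm15283* and, on the same strand, of *Gm49321*, and 5.74% of its 50-base stretches are shared with them.

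*Epas1*, which encodes the alpha subunit known best from endothelium and other supporting cells, lies on chromosome 17 from 86753700 to 86833410 and overlaps no other annotated exon. Its counts were 140 and 193 in WT against 20 and 11 in the deeper *Patz1* KO libraries, which is 9.40 and 12.1 CPM against 0.825 and 0.656 CPM. The *Patz1* KO level was 14.2-fold below that of WT (10.8 ± 1.94 and 0.740 ± 0.120 CPM, SD, n = 2 per group), a log2 fold change of -3.83 (SE 0.27, 95% interval -4.40 to -3.26). Leaving out each library in turn gave -4.02 to -3.63, and 0.582% of the genes tested had a larger absolute log2 fold change.

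Several marker lists of other cell types moved in the same direction as *Epas1*. All 7 mesenchyme markers tested (such as *Pdgfra*, *Col3a1* and *Twist1*) were lower at an adjusted p below 0.05 in edgeR's test, and their summed level was 195.8 to 214.7 CPM in WT and 35.7 to 42.6 CPM in *Patz1* KO. Of 8 endoderm markers, 6 were lower and none higher, with sums of 60.5 to 65.7 and 10.5 to 12.4 CPM, and *Afp* and *Sox7* did not pass. *Foxa2* was the largest part of these sums, with means of 28.2 CPM in WT and 5.56 CPM in *Patz1* KO. Of 8 endothelial markers, *Cdh5*, *Tek*, *Tie1* and *Kdr* were lower and *Egfl7* was higher, and the sum, in which *Egfl7* weighs most in *Patz1* KO, was 16.0 to 18.6 CPM in WT and 20.1 to 23.4 CPM in *Patz1* KO. None of these markers was at 3 or fewer counts in every library. In bulk RNA, fewer cells of a type and less *Epas1* RNA per cell cannot be told apart, and the part of these cell types in the *Epas1* result was not tested. MN markers stood the other way: 6 of 7 were higher and the seventh, *Isl1*, did not pass (log2 fold change -0.19, adjusted p = 0.0767), with sums of 537.1 to 576.4 CPM in WT and 785.2 to 860.4 CPM in *Patz1* KO, so the labelled cell type was present in both groups.

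**Figure D2:**
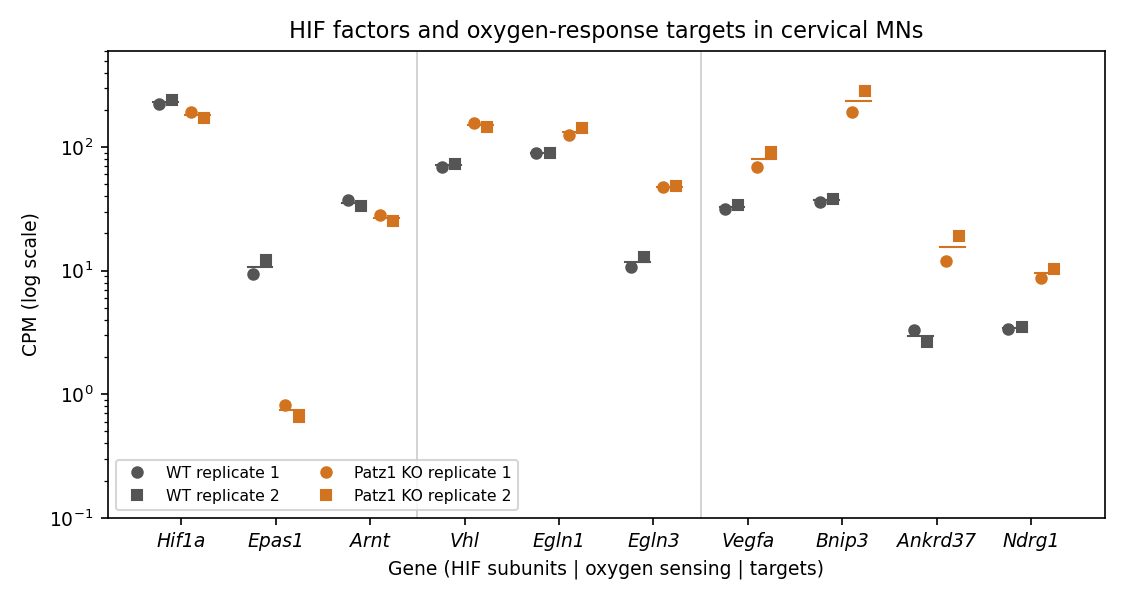
CPM (log scale) of the 10 genes in each library, with a bar at the mean of each group, gray for WT and orange for *Patz1* KO, circles for replicate 1 and squares for replicate 2. The 3 subunits on the left lie lower in *Patz1* KO, with *Epas1* below 1 CPM in both libraries, and the 7 sensing and target genes lie higher.

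The make-up of the alpha subunits shifted toward *Hif1a*, and their sum was lower. Per kilobase of exon, *Hif1a* made up 94.9% and 93.9% of the summed level of *Hif1a*, *Epas1* and *Hif3a* in WT against 98.3% and 98.1% in *Patz1* KO. The share of *Epas1* was 4.25% and 5.04% in WT and 0.449% and 0.395% in *Patz1* KO. The sum of the 3 genes was 39.5 and 43.1 CPM per kilobase in WT and 32.9 and 29.7 in *Patz1* KO. *Hif3a*, an alpha subunit with short forms that oppose the others, stayed low in every library, at 2.62 ± 0.568 CPM in WT and 2.82 ± 0.141 CPM in *Patz1* KO (SD, n = 2 per group), with a log2 fold change of 0.10 (95% interval -0.49 to 0.69) that was -0.10 without WT replicate 1. Among beta subunits, the neuronal paralog *Arnt2* was the larger part in all 4 libraries. *Arnt* gave 25.2% and 23.1% of the sum per kilobase in WT and 19.1% and 19.2% in *Patz1* KO, while *Arnt2* stood at 106 ± 0.155 CPM in WT and 108 ± 8.25 CPM in *Patz1* KO (SD, n = 2 per group). Its log2 fold change was 0.03 (95% interval -0.16 to 0.21), and under library size alone the sign turned (-0.00047).

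**Figure D3:**
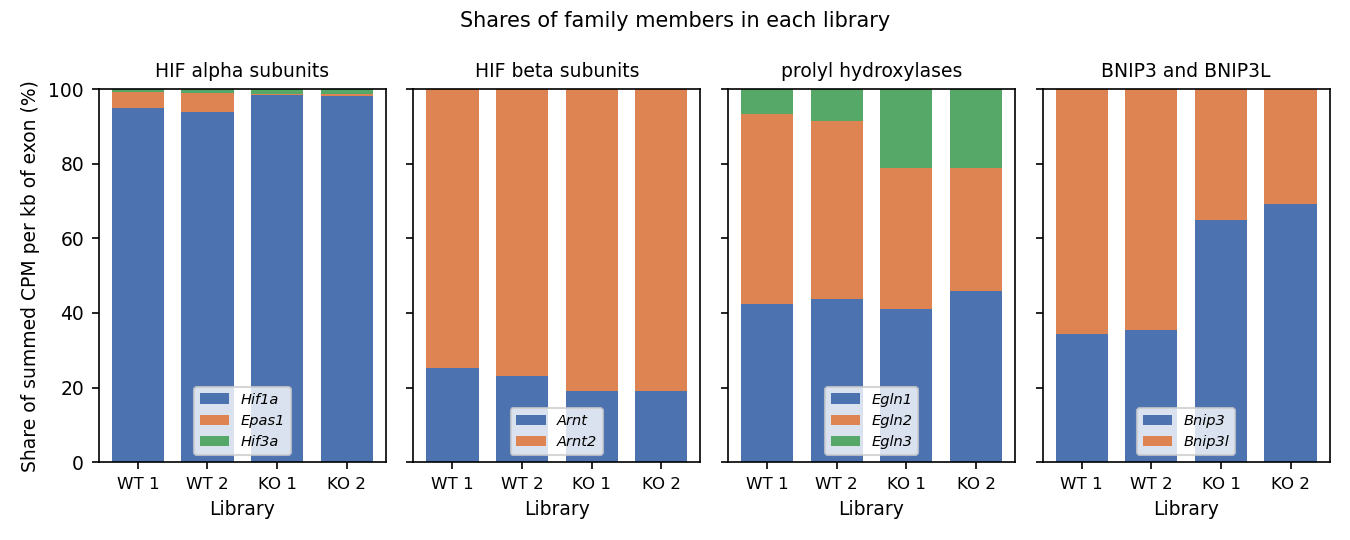
Share (%) of each gene in the summed CPM per kilobase of exon of its family, in each of the 4 libraries, for the HIF alpha subunits, the HIF beta subunits, the prolyl hydroxylases and the pair *Bnip3* and *Bnip3l*. *Hif1a* and *Arnt2* dominate their families in every library, while the shares of *Egln3* and *Bnip3* are larger in both *Patz1* KO libraries than in both WT libraries.

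The 3 genes that sense oxygen and remove HIF were all higher in *Patz1* KO MNs, *Egln3* the most. *Egln3*, a prolyl hydroxylase that HIF itself induces (chromosome 12, 54178981 to 54203860), had counts of 158 and 206 in WT against 1147 and 807 in *Patz1* KO MNs, or 10.6 and 13.0 CPM against 47.3 and 48.1 CPM. The *Patz1* KO libraries stood close to each other and far above WT, with means of 11.8 ± 1.66 and 47.7 ± 0.564 CPM (SD, n = 2 per group). This is 4.04-fold, a log2 fold change of 2.01 (SE 0.12, 95% interval 1.76 to 2.27), and 3.69% of the genes tested had a larger absolute value. *Egln1*, the main prolyl hydroxylase of HIF in normal oxygen (chromosome 8, 124908587 to 124949324), had 89.7 and 89.8 CPM in WT and 124 and 141 CPM in *Patz1* KO. Its means were 89.7 ± 0.0389 and 133 ± 11.9 CPM (SD, n = 2 per group), a log2 fold change of 0.57 (SE 0.091, 95% interval 0.37 to 0.76), the smallest of the 7 higher genes.

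*Vhl*, the part of the ubiquitin ligase that recognizes hydroxylated HIF alpha (chromosome 6, 113623959 to 113631633), had 68.3 and 73.4 CPM in WT and 157 and 144 CPM in *Patz1* KO. The means were 70.8 ± 3.62 and 151 ± 9.03 CPM (SD, n = 2 per group), which is 2.13-fold and a log2 fold change of 1.09 (SE 0.090, 95% interval 0.90 to 1.28). Leaving out each library in turn gave 1.03 to 1.16. Both *Patz1* KO libraries were above both WT libraries, and 11.8% of the genes tested had a larger absolute log2 fold change.

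The other parts of the VHL ligase did not follow *Vhl*. *Rbx1*, its RING subunit, had a log2 fold change of -0.31 (adjusted p = 0.0111), *Tceb1* (Elongin C) -0.30 (adjusted p = 0.0360), *Tceb2* (Elongin B) -0.09 (adjusted p = 0.534) and the scaffold *Cul2* -0.06 (adjusted p = 0.616), all from edgeR's quasi-likelihood test. *Tceb1* had 115 and 118 CPM in WT against 80.9 and 109 CPM in *Patz1* KO. *Rbx1* had 195 and 190 CPM in WT against 143 and 168 CPM in *Patz1* KO. Both falls were thus larger in *Patz1* KO replicate 1 than in replicate 2. All 4 ligase genes were named after their values were seen.

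*Egln2*, the third prolyl hydroxylase, was close to equal in both groups. It had 80.1 ± 5.17 CPM in WT and 83.7 ± 7.34 CPM in *Patz1* KO (SD, n = 2 per group), a log2 fold change of 0.07 (95% interval -0.14 to 0.27), which was -0.02 without *Patz1* KO replicate 1. Per kilobase of exon, *Egln2* was the largest of the 3 in WT with 50.8% and 47.8% of their sum, and in *Patz1* KO it held 37.7% and 32.8%. The share of *Egln3* went from 6.77% and 8.52% in WT to 21.1% and 21.2% in *Patz1* KO, while *Egln1* held 42.4% and 43.7% and then 41.2% and 46.0%. The groups did not overlap for *Egln2* and *Egln3*, and they did for *Egln1*. The sum of the 3 genes was 57.1 to 58.9 CPM per kilobase in WT and 84.2 to 85.4 in *Patz1* KO.

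All 4 targets were higher in *Patz1* KO MNs, from 2.43-fold for *Vegfa* to 6.42-fold for *Bnip3*. *Bnip3*, which marks mitochondria for removal by autophagy (chromosome 7, 138890836 to 138909519), had counts of 536 and 601 in WT against 4684 and 4712 in *Patz1* KO MNs. This is 36.0 and 37.8 CPM against 193 and 281 CPM, with means of 36.9 ± 1.28 and 237 ± 62.0 CPM (SD, n = 2 per group). The log2 fold change was 2.68 (SE 0.14, 95% interval 2.39 to 2.97), larger in absolute value than that of all but 1.81% of the genes tested. Of the 50-base stretches of its transcripts, 47.2% also occur in transcripts of other annotated genes, such as *Gm6532*, *Gm9419* and *Gm45507*. The exons of *Gm45507* overlap those of *Bnip3* by 504 bases on the other strand. How the reads of *Bnip3* were assigned is therefore uncertain.

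*Ankrd37*, a short ankyrin-repeat protein known as a direct HIF target (chromosome 8, 45996902 to 46005707), had counts of 49 and 42 in WT against 292 and 318 in *Patz1* KO MNs. Its CPM were 3.29 and 2.64 against 12.05 and 19.0, with means of 2.97 ± 0.458 and 15.5 ± 4.89 (SD, n = 2 per group) and a log2 fold change of 2.37 (SE 0.23, 95% interval 1.88 to 2.86). The fold was 5.17, and the groups lay far apart in spite of the distance between the *Patz1* KO libraries. Its exons overlap those of *Ufsp2* and *Lrp2bp* on the other strand, and 17.0% of its 50-base stretches are shared with them. *Ufsp2* had a log2 fold change of 0.33, and *Lrp2bp* had between 5 and 9 counts per library.

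*Vegfa*, the growth factor that draws blood vessels toward tissue short of oxygen and also acts on MNs (chromosome 17, 46016993 to 46032369), had 31.5 and 34.2 CPM in WT and 68.6 and 91.6 CPM in *Patz1* KO. The means were 32.8 ± 1.88 and 80.1 ± 16.2 CPM (SD, n = 2 per group), a log2 fold change of 1.28 (SE 0.12, 95% interval 1.02 to 1.54). *Ndrg1*, a stress-induced protein of membrane trafficking and cell differentiation (chromosome 15, 66929318 to 66969640), had counts of 50 and 56 in WT against 212 and 173 in *Patz1* KO MNs, or 3.36 and 3.52 CPM against 8.75 and 10.3 CPM. Its exons overlap those of *Gm17035* and *Gm2895* on the other strand, and 6.02% of its 50-base stretches also occur in other genes. It was 2.75-fold higher, with means of 3.44 ± 0.117 and 9.53 ± 1.11 CPM (SD, n = 2 per group) and a log2 fold change of 1.46 (SE 0.21, 95% interval 1.03 to 1.89). For both genes the *Patz1* KO libraries lay above both WT libraries.

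**Figure D4:**
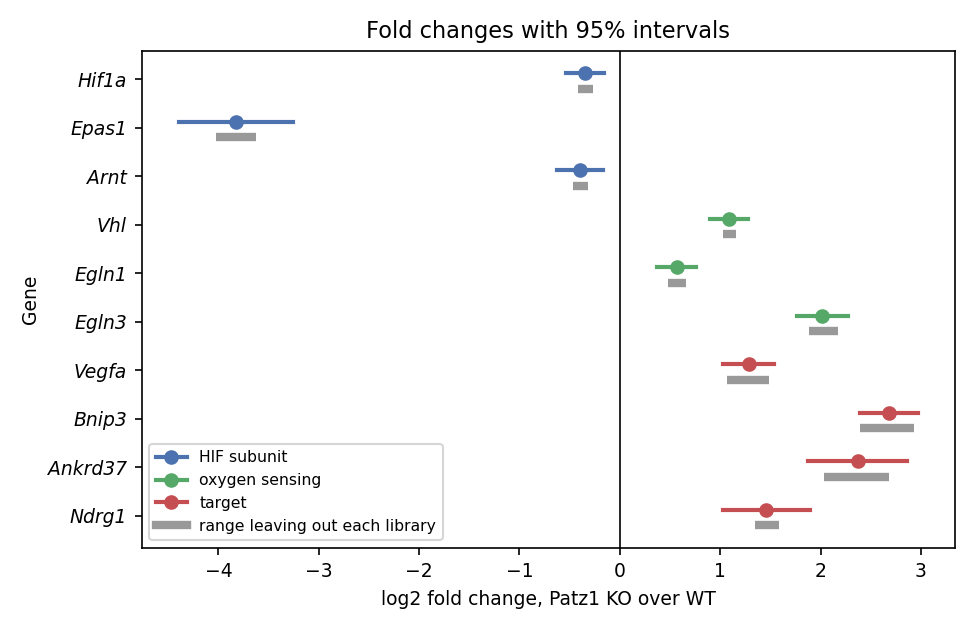
Log2 fold change (*Patz1* KO over WT) of each gene, with the 95% interval as a colored line (blue for HIF subunits, green for oxygen sensing, red for targets) and the range over fits that leave out each library as a gray bar below it. The subunits lie left of 0, from -3.83 for *Epas1* to -0.34 for *Hif1a*, and the other 7 genes lie right of it, from 0.57 for *Egln1* to 2.68 for *Bnip3*.

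Read by role, the log2 fold changes had a median of -0.39 over the subunits (-3.83 to -0.34), 1.09 over the sensing genes (0.57 to 2.01) and 1.92 over the targets (1.28 to 2.68). All 10 genes passed the filter on low counts, and at an adjusted p below 0.05 in edgeR's test 7 were higher and 3 lower. This stands beside 47.9% of all genes tested, 24.1% higher and 23.8% lower, and nothing is read from it because the genes were chosen on this contrast.

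The order of the 10 genes by level changed between the genotypes. Per kilobase of exon, *Hif1a* was highest in WT with a mean of 39.0 CPM per kilobase, followed by *Egln1* (24.96), *Vhl* (23.6), *Bnip3* (16.3) and *Vegfa* (7.66). *Bnip3* led in *Patz1* KO with 104.7, followed by *Vhl* (50.3), *Egln1* (37.0), *Hif1a* (30.7) and *Vegfa* (18.7). The lower part of the WT order was *Egln3* (4.43), *Arnt* (4.40), *Ankrd37* (1.93), *Epas1* (1.93) and *Ndrg1* (0.521). In *Patz1* KO it was *Egln3* (17.9), *Ankrd37* (10.1), *Arnt* (3.33), *Ndrg1* (1.44) and *Epas1* (0.132). Neighbors whose libraries overlapped were *Egln3* and *Arnt* and then *Ankrd37* and *Epas1* in WT, and *Vegfa* and *Egln3* in *Patz1* KO. The libraries of all other neighbors did not overlap, which covers the spread of replicates only. Lengths were those of the merged exons of all annotated transcripts, which need not be the ones expressed, so the order of different genes is approximate. The place of *Bnip3* also rests on how its reads were assigned.

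The targets also differed between the *Patz1* KO libraries, and a single pair of libraries cannot show whether genes vary together. Replicate 2 was above replicate 1 for all 4, by 1.18-fold for *Ndrg1*, 1.33-fold for *Vegfa*, 1.45-fold for *Bnip3* and 1.57-fold for *Ankrd37* in CPM. In WT the same ratio was between 0.803 and 1.08 for these genes. In *Patz1* KO the ratio was 0.919 for *Vhl*, 1.02 for *Egln3*, 1.14 for *Egln1* and 0.795 to 0.903 for the subunits, all below that of *Ndrg1*. Of the 23 other oxygen-response targets that were higher in *Patz1* KO, 78.3% were above in replicate 2, with a median ratio of 1.15, against 40.4% of all genes that were higher and 47.5% of all genes tested. Replicate 2 is also the library in which the 3 abundant non-coding RNAs took 9.65% of the counts, and the part of this in the ratios was not tested. Without it the log2 fold changes were 2.39 for *Bnip3*, 2.03 for *Ankrd37*, 1.07 for *Vegfa* and 1.35 for *Ndrg1*, and without replicate 1 they were 2.93, 2.68, 1.48 and 1.58.

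Other oxygen-response targets, a list of 41 genes outside glycolysis, were mostly higher as well. Of the 35 tested, 23 rose, 2 fell and 10 did not pass, which is 71.4% past the threshold beside 47.9% of all genes tested, and their median log2 fold change was 0.70 beside -0.0014. The largest rise was that of *Bhlhe40*, a circadian and stress repressor, from 3.69 ± 0.565 CPM in WT to 24.7 ± 2.47 CPM in *Patz1* KO (SD, n = 2 per group), a log2 fold change of 2.73 (SE 0.17, adjusted p = 6.41e-10 from edgeR's test). The vasodilator peptide gene *Adm* rose by a log2 fold change of 2.58 (SE 0.39, adjusted p = 3.01e-05), from 9 and 10 counts in WT to 69 and 80. *Ppp1r3c*, which directs glycogen storage, rose by 2.47 (SE 0.24, adjusted p = 2.06e-07), and the mitochondrial adenylate kinase *Ak4* by 2.299 (SE 0.13, adjusted p = 2.58e-10). The other 19 genes that rose spanned log2 fold changes from 0.36 for the chemokine receptor *Cxcr4* to 2.01 for the neurite-promoting *Nrn1*, both named for being the ends of this range.

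The list was not uniform. *Angptl4*, a lipase inhibitor of fat and vessel, fell from 2.92 ± 0.141 to 0.596 ± 0.0845 CPM (SD, n = 2 per group), a log2 fold change of -2.301 (SE 0.36, adjusted p = 4.83e-05), and the mitochondrial protease *Lonp1* fell by 0.23 on the log2 scale (SE 0.089, adjusted p = 0.0390). *Lonp1* did not pass under 5 of 14 alternatives, among them DESeq2's Wald test (adjusted p = 0.130) and leaving out either WT library (adjusted p = 0.291 and 0.188). The 6 genes not tested for low counts each had at most 8 counts in any library, *Car9*, *Epo*, *Edn1*, *Rab20* and *Pdgfb* among them, so *Car9* and *Epo*, common reporters of hypoxia, were near the limit of detection here. Across the whole of these results, astrocyte and radial glia markers summed to 482.2 to 508 CPM in WT and 786.3 to 871.5 CPM in *Patz1* KO, with *Fabp7* and *Slc1a3* higher and *Gfap* at 3 or fewer counts in every library. Neuron markers summed to 2891 to 3117 and 3822 to 4187 CPM, with 2 of 4 higher. All 4 proliferation markers were lower, with sums of 1288 to 1385 and 683.2 to 690.2 CPM. Pluripotency markers stayed at 6.04 to 7.17 and 4.99 to 6.20 CPM, with neither gene tested past the threshold in edgeR's test (*Nanog* had a log2 fold change of -0.70 and an adjusted p of 0.0551, and it passed without adjustment). The part of these differences in cell make-up in the levels of the oxygen-response genes was not tested.

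**Figure D5:**
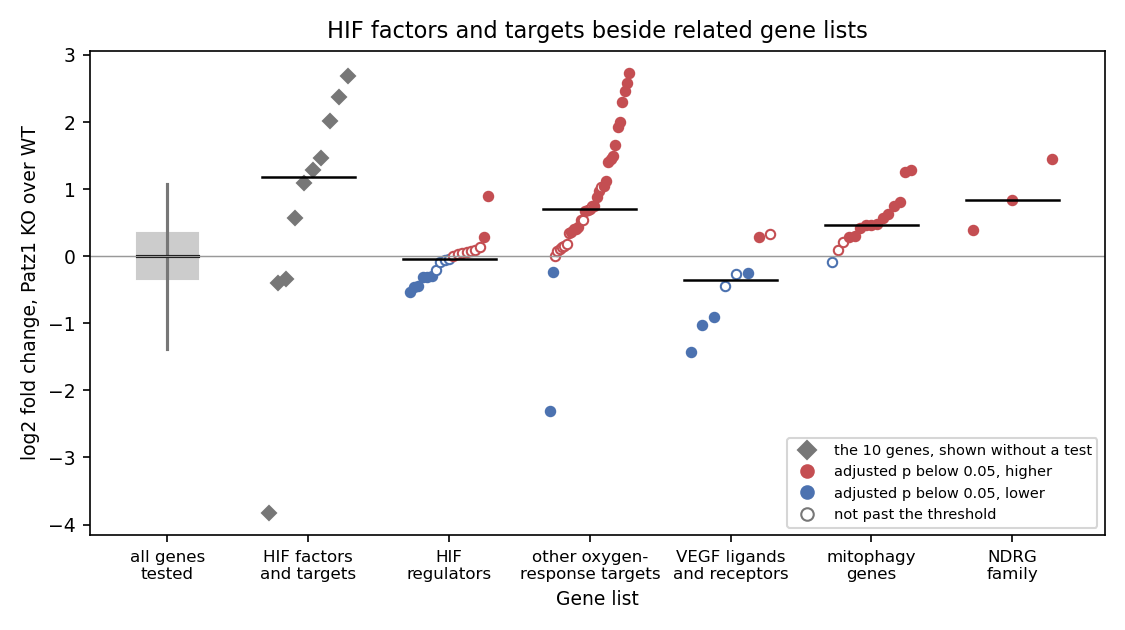
Log2 fold change (*Patz1* KO over WT) of each gene tested in 6 gene lists, beside all genes tested (box for the middle range from the 25th to the 75th percentile, line for the 5th to the 95th). Gray diamonds are the 10 HIF factors and targets, shown without a test; filled circles passed an adjusted p of 0.05, open circles did not, and black bars are medians, which lie at 0.70 for other oxygen-response targets and at -0.05 for HIF regulators.

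HIF regulators outside the 10 genes did not share one direction. The list holds *Hif3a*, *Arnt2*, *Egln2* and the VHL ligase parts, all given above. Of 20 genes listed, 19 were tested, 2 rose, 6 fell (*Rbx1* and *Tceb1* among them) and 11 did not pass. That is 42.1% past the threshold beside 47.9% of all genes tested. The median log2 fold change of the list was -0.05. *P4htm*, a transmembrane prolyl hydroxylase, rose from 11.0 ± 1.15 to 20.4 ± 0.222 CPM (SD, n = 2 per group), a log2 fold change of 0.89 (SE 0.14, adjusted p = 3.71e-05). The other rise, of *Gnb2l1* (RACK1, which promotes the oxygen-independent loss of HIF alpha), was small (log2 fold change 0.29, adjusted p = 0.0432) and was lost under 7 of 14 alternatives. The coactivators of HIF fell: *Crebbp* had a log2 fold change of -0.53 (SE 0.093, adjusted p = 1.36e-04) and *Ep300* one of -0.44 (SE 0.089, adjusted p = 5.93e-04). *Hsp90aa1*, a chaperone of HIF alpha (-0.46, adjusted p = 0.00351), and the scaffold *Limd1* (-0.31, adjusted p = 0.0104) fell too, though *Hsp90aa1* did not pass without WT replicate 2 (adjusted p = 0.102) nor *Limd1* without either WT library (adjusted p = 0.0946 and 0.0951). Fewer of the list passed when either WT library was left out, as did fewer of all genes tested. *Hif1an*, the asparaginyl hydroxylase that keeps HIF from its coactivators, had a log2 fold change of -0.21 (adjusted p = 0.0789), which was -0.32 and passed without *Patz1* KO replicate 1 (adjusted p = 0.00216). *Cited2*, which competes for them, had one of 0.01 (adjusted p = 0.971, 95% interval -0.33 to 0.35). *Cited2* turned to -0.02 under library size alone.

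*Vegfa* was higher while most of its family and receptors were not. Of 8 VEGF ligands and receptors tested besides *Vegfa*, 1 rose, 4 fell and 3 did not pass, which is 62.5% past the threshold beside 47.9%, with a median log2 fold change of -0.35. The receptors *Flt1* and *Kdr* fell by 1.43 and 1.03 on the log2 scale (SE 0.36 and 0.25, adjusted p = 0.00311 and 0.00274), at 18 to 81 counts per library. *Flt1* did not pass without WT replicate 2 (adjusted p = 0.0707). The ligand *Pgf* (log2 fold change -0.91, adjusted p = 0.0291) and the co-receptors *Nrp1* (-0.25, adjusted p = 0.0444) and *Nrp2* (0.29, adjusted p = 0.0235) passed, and none of the 3 passed in every alternative. Without *Patz1* KO replicate 1 *Pgf* was -1.60 and *Nrp2* 0.13, and without replicate 2 they were -0.53 and 0.43. Fewer of these genes passed when either WT library was left out, as did fewer of all genes tested. Fewer also passed without *Patz1* KO replicate 2, though more of all genes did. With DESeq2's Wald test 3 of the list passed, and *Pgf* did not (adjusted p = 0.128). *Vegfb* had a log2 fold change of 0.33 (adjusted p = 0.128), which was 0.50 and passed without *Patz1* KO replicate 1 (adjusted p = 0.0132) and was 0.17 without replicate 2. *Vegfc* had one of -0.27 (adjusted p = 0.536), which was 0.36 without WT replicate 2. *Kdr* is also one of the endothelial markers given above, and the part of endothelial cells in these receptor values was not tested. Among the ligands, *Vegfa* held 50.03% and 51.03% of the sum per kilobase in WT and 67.5% and 71.2% in *Patz1* KO.

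Most genes of a list for mitophagy, the pathway in which *Bnip3* acts, were higher. So were the neuron and MN marker sums, whose part in this was not tested. The list also holds genes of autophagy at large. Of 15 tested, 12 rose, none fell in edgeR's test (also at an unadjusted p below 0.05) and 3 did not pass, which is 80.0% past the threshold beside 47.9% and 24.1% higher over all genes tested, with a median log2 fold change of 0.47. Among the rises, *Gabarapl1*, which links cargo to the autophagosome, rose by a log2 fold change of 1.26 (SE 0.097, adjusted p = 1.31e-08) and *Pink1*, a kinase that builds up on damaged mitochondria, by 0.80 (SE 0.093, adjusted p = 1.67e-06). *Bnip3l*, the closest paralog of *Bnip3*, is in the list of other oxygen-response targets and rose by 0.75 (SE 0.095, adjusted p = 4.91e-06), from 117 ± 0.259 to 196 ± 24.6 CPM (SD, n = 2 per group). *Bnip3* rose more than *Bnip3l*, and the order of the pair turned in these counts. *Bnip3* gave 34.5% and 35.5% of their sum per kilobase in WT and 64.8% and 69.2% in *Patz1* KO. Which paralog is the larger rests on how reads from the shared stretches of *Bnip3* were assigned, which is uncertain.

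The paralogs of *Ndrg1* rose as well, 3 of 3 tested. Over all genes tested 24.1% were higher and 47.9% passed the threshold in either direction. *Ndrg2* had a log2 fold change of 1.46 (SE 0.18, adjusted p = 3.25e-06), close to the 1.46 of *Ndrg1*, *Ndrg4* one of 0.84 (SE 0.088, adjusted p = 5.49e-07) and *Ndrg3* one of 0.38 (SE 0.094, adjusted p = 0.00251), which did not pass without WT replicate 1 (adjusted p = 0.0768). *Ndrg4*, the member best known from brain and heart, gave 77.1% to 80.1% of the family's sum per kilobase in every library. *Ndrg1* was the least of the 4 in both groups, with 1.42% and 1.49% in WT and 2.04% and 2.57% in *Patz1* KO.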

How the data were processed

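The authors mapped reads of stranded total RNA libraries to mm10 and deposited raw counts per gene symbol for each library, without normalization. The submitters' processing notes name TopHat2 2.1.1, Bowtie2 2.3.1, featureCounts 1.6.2 and DESeq2; the annotation and strand setting are not given in the sources used here, so counts of overlapping and antisense genes are uncertain. The 4 libraries were grouped by the genotype in their labels, 2 WT and 2 *Patz1* KO. Counts were scaled with TMM and tested with edgeR 4.0.16 (limma 3.58.1, R 4.3.3) by its quasi-likelihood test, after filterByExpr with a minimum count of 10, with Benjamini-Hochberg adjustment over 14269 genes and a threshold of 0.05. The SE is the size of the log2 fold change over the root of its F value. The labels only number the replicates; the study describes its MN RNA-seq as biological replicates, a term its methods use for separate differentiations. With 2 libraries against 2 an exact permutation test cannot pass 0.05. Replicates differed by more than sampling noise (chi-square per gene 8.44 in WT and 18.7 in *Patz1* KO), with a common coefficient of biological variation of 7.71%. Counting limits cover counting error only.

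Positions, exon lengths and shared 50-base stretches come from GENCODE M21 (GRCm38), which matched 23070 of the 23420 symbols. *Tceb1*, *Tceb2* and *Gnb2l1* are the files' older symbols for *Eloc*, *Elob* and *Rack1*. Tables and promoters were processed with pandas 2.3.3, numpy 2.4.6 and matplotlib 3.10.9 (Python 3.11.15). The fit was run on simulated counts in which every gene had the same biological variation. That checked the code and not the spread of these libraries.

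The 10 genes and all gene lists were chosen with earlier results of these data known. The genes named are *Patz1*, the 10 genes, their set paralogs and partners, and of each list the 4 genes with the largest absolute log2 fold change past the threshold in each direction; others are marked as named after their values were seen, and some genes that this rule or the lists take are not reported here. The alternatives were scaling by library size alone, by the size factors of DESeq2 or by TMM after removal of the 20 genes with the most counts; all genes with a count, or 10 counts in each library, as the filter; a block for the replicate number; glmTreat with a minimum absolute log2 fold change of 1; robust estimation; thinning to the smallest library; the Wald test of DESeq2 1.42.0 (alpha 0.1); and leaving out each library, where a group left with 1 library is assumed to vary like the other.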

Additional observations from a re-analysis of the deposited data

How the results depend on the processing

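Of 587 single-gene values over 14 alternatives, 521 kept their direction and their side of the threshold, 55 no longer passed, 3 newly passed and 8 turned sign, with none of those 8 values past the threshold. A minimum absolute log2 fold change of 1 (edgeR's glmTreat) left 718 genes, of them 4 of the 10 HIF factors and targets, 8 other oxygen-response targets, 1 mitophagy gene, 1 *Ndrg* gene, 0 HIF regulators and 0 VEGF genes (0 and 1 at an unadjusted p below 0.05); edgeR's test without that minimum called 8 HIF regulators and 5 VEGF genes, and DESeq2's Wald test 7 and 3. Leaving out each library in turn gave 4521 to 7816 genes (4521 without WT replicate 2), 9 to 10 of the 10 genes (without *Arnt* when WT replicate 1 was left out and without *Hif1a* when WT replicate 2 was), 3 to 9 HIF regulators (4 without WT replicate 1 and 3 without WT replicate 2), 21 to 27 other oxygen-response targets, 2 to 5 VEGF genes (2 without either WT library, 3 without *Patz1* KO replicate 2), 9 to 13 mitophagy genes and 2 to 3 *Ndrg* genes. Such fits have fewer libraries, and no other cause was tested. Signs turned for *Arnt2* (library size alone -0.00047, without *Patz1* KO replicate 1 -0.050, leave-one-out range -0.050 to 0.11), *Cited2* (library size alone -0.020, without WT replicate 1 -0.20, without *Patz1* KO replicate 2 -0.080, range -0.20 to 0.27), *Egln2* (without *Patz1* KO replicate 1 -0.025, range -0.025 to 0.16), *Hif3a* (range -0.10, without WT replicate 1, to 0.35) and *Vegfc* (range -0.69 to 0.36, the latter without WT replicate 2). Other scalings moved the median of all genes between -0.030 and 0.0070. The replicates share only a number in the labels, and same-numbered libraries did not deviate together (correlation 0.041 over 2 pairs). With the replicate block 7361 genes and all 10 HIF factors and targets passed, *Gnb2l1* did not (adjusted p = 0.0691) and *Hif1an* did (adjusted p = 0.0414). Depth limits genes with few counts most, such as *Epas1* in *Patz1* KO, *Adm*, *Flt1* and *Vegfc*.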
